A study of Homo sapiens with 6 samples.

Results

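Solute carriers are membrane proteins that move amino acids, ions, metals, nucleotides, sugars and vitamins across the plasma membrane and the membranes of organelles. The genes described here are the well-expressed solute carriers of HCC827 cells, an EGFR-mutant line from a human lung adenocarcinoma, as 3D tumoroids or as a 2D monolayer. Of 60504 genes in the deposited table, 372 are annotated as protein-coding and carry a symbol of SLC followed by a digit. Carriers of the SLC2A and SLC16A families and SLC34A2, SLC7A11, SLC3A2, SLC40A1, SLC11A2 and SLC30A1 were left out by name, and 109 of the rest had a mean of at least 10 TPM (transcripts per 1000000) over the 6 libraries. The members were chosen by this mean TPM over all libraries, so their level is a description and not a finding.

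The 3D group held 3 libraries of HCC827 cells seeded at 50000 per droplet of Matrigel (growth factor reduced), which is extracellular matrix from basement membrane, and kept there for 12 to 16 days. The 2D group held 3 libraries of the same line in uncoated flasks, seeded at 1000000 cells per flask and cultured for 4 to 6 days between passages. Both groups had RPMI medium with GlutaMAX, fetal bovine serum, penicillin and streptomycin. The tumoroids were passaged with Dispase and a Rock inhibitor and then TrypLE, whereas the monolayer was passaged with TrypLE alone. All libraries are of 1 cell line. Whether replicates were separate cultures is not in the labels, and the p-values therefore reflect the spread among these libraries alone, possibly a technical one. Culture time, cell number, gel contact and geometry differ together between the groups and cannot be told apart.

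Carriers of the SLC families share a name and a function rather than a common ancestor. At the plasma membrane, some let a solute pass down its own gradient, some couple it to the gradient of sodium or another ion, and some exchange 1 solute for another. The SLC25 family lies mainly in the inner mitochondrial membrane and links the matrix with the cytosol. The SLC35 family supplies nucleotide sugars to the Golgi apparatus and endoplasmic reticulum, and the SLC39 and SLC30 families move zinc into and out of the cytosol. In tumour cells, solute carriers are studied mostly for amino acid uptake, pH control and the exchange of ATP with mitochondria.

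TPM keeps no record of sequencing depth, so depth is unknown and counting error cannot be stated. In bulk RNA, fewer cells of a type and less RNA per cell cannot be told apart. Epithelial markers were present in both cultures, with EPCAM between 567 and 589 TPM in 3D and between 573 and 631 TPM in 2D, as was the lung lineage factor NKX2-1, between 58.9 and 79.9 TPM in 3D and between 58.9 and 65.9 TPM in 2D. The 6 fibroblast markers summed to 6.99 to 12.1 TPM in 3D and 2.10 to 2.96 TPM in 2D, mostly COL1A1, with COL3A1 listed at 0 in all libraries. The 4 endothelial markers summed to 1.51 to 3.98 TPM in 3D and 0.680 to 1.46 TPM in 2D, and of the 5 leukocyte markers CD68 alone was above 1 TPM. The 6 epithelial markers summed to 4464 to 8263 TPM in 3D and 7223 to 9624 TPM in 2D, and 1 of them, KRT7, was lower in 3D. The part of these marker levels in the results was not tested. Replicate 3 stood apart in both cultures. It was the library farthest from its group mean for 51 of the 109 carriers in 3D and for 52 of 109 in 2D.

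The well-expressed carriers differed between 3D and 2D about as often as other genes did. In 3D, 12 of the 109 rose and 5 fell (limma on log2(TPM + 1), Benjamini-Hochberg adjusted p under 0.05 over 15042 tested genes), and 92 did not pass the test. Genes called in either direction made up 15.6% of the carriers, against 12.3% of all tested genes. Those called higher were 11.0% of the carriers against 10.2% of all tested genes, and those called lower were 4.59% against 2.12%. The libraries of the 2 cultures did not overlap for 44 carriers (40.4%), 32 with 3D above and 12 with 3D below, against 36.7% of all tested genes. The median log2 fold change was 0.09 for the carriers and 0.12 for all tested genes, with 64 carriers positive and 45 negative.

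Of the 109, 85 had at least 10 TPM in every library. A further 8 had a mean under 10 TPM in 1 culture and entered through the other. They included 4 of the genes called higher, SLC25A25, SLC12A2, SLC29A4 and SLC5A3, and 1 of those called lower, SLC35F6. The 10 TPM rule took these in through the culture where they were higher. Their calls are therefore no support for a difference between carriers and other genes in the counts above. The carriers just inside the threshold were SLC25A12, SLC29A1 and SLC29A4, at means of 10.01, 10.1 and 10.2 TPM. Just outside it lay SLC25A32, SLC7A6 and SLC17A5, at 9.80, 9.35 and 8.86 TPM.

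The scale set the balance of directions. When libraries were rescaled by median ratios, the median of all tested genes moved from 0.12 to -0.03 and the calls among carriers became 8 higher and 10 lower. Quantile normalization gave 7 higher and 8 lower. The share of called carriers that were higher was 70.6% as deposited, 44.4% under median ratios and 46.7% under quantile normalization. The same share over all called genes was 82.8%, 58.5% and 60.1% in that order of settings, so the shift was not particular to the carriers. None of the 17 calls changed direction in either, and 13 of the 17 held under median ratios and 12 under quantile normalization.

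**Figure D1:**
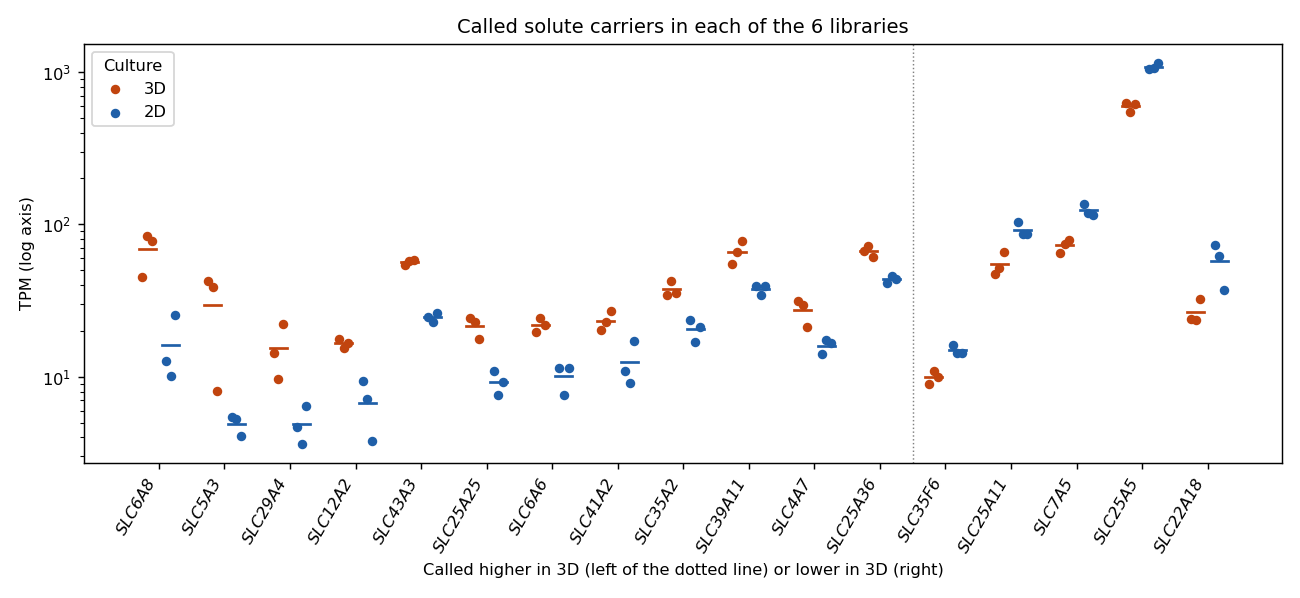
TPM on a log axis of the 17 called carriers in each library, with 3D points left of 2D points and short lines at the group means. SLC25A5 stands above the other called carriers, at 549 to 627 TPM in 3D and 1040 to 1144 TPM in 2D.

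Among carriers of the amino acid and peptide families, the transporters of creatine, taurine and nucleobases rose in 3D and the large neutral amino acid transporter fell. Of 16 such carriers, 3 were higher, 1 was lower and 12 did not pass the test, with a median log2 fold change of 0.19. This and the later class counts stand beside 10.2% higher and 2.12% lower over all tested genes. SLC6A8, which takes up creatine, had 44.9, 84.0 and 77.7 TPM in 3D, against 12.7, 10.1 and 25.4 TPM in 2D. All 3D libraries lay above all 2D libraries, with the highest 2D value in replicate 3. The 3D level was higher by 2.09 on the log2 scale (limma, SE 0.36, adjusted p = 0.0139), and the call was lost without 3D replicate 2 or 2D replicate 2 (adjusted p 0.0051 to 0.0702 over the alternatives). On the opposite strand SLC6A8 overlaps PNCK, a protein kinase gene that also rose, with 24.3, 38.01 and 49.8 TPM in 3D against 4.75, 4.26 and 9.72 TPM in 2D (log2 fold change 2.42, limma adjusted p = 0.0071). The libraries were directional, but no source used here gives the strand setting of the counting. Whether reads from the shared stretch were divided by strand is therefore unknown.

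SLC6A6, the taurine transporter, had 19.7, 24.3 and 21.7 TPM in 3D, against 11.3, 7.54 and 11.4 TPM in 2D. The groups were well apart, with no library out of place. The log2 fold change was 1.06 (limma, SE 0.19, adjusted p = 0.0149), a call lost without 3D replicate 1 or 2 (adjusted p 0.0124 to 0.0715 over the alternatives). SLC43A3 had the smallest adjusted p of the 17. It belongs to an amino acid transporter family by sequence but carries purine nucleobases, and it spans chr11:57406954-57427580 on the minus strand (GRCh38, GENCODE 29). Its values were 53.8, 57.7 and 58.2 TPM in 3D, against 24.8, 22.8 and 26.3 TPM in 2D. This gave a log2 fold change of 1.17 (limma, SE 0.12, adjusted p = 0.0023), and alone among the 17 it was called under every alternative run (adjusted p 0.0018 to 0.0183).

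SLC7A5, the light chain of the transporter LAT1 that brings in leucine and other large neutral amino acids, was lower in 3D. It had 65.2, 74.7 and 78.7 TPM in 3D, against 137, 118 and 116 TPM in 2D. All 3D values lay below all 2D values. The log2 fold change was -0.75 (limma, SE 0.13, adjusted p = 0.0152), a call that ended with any 1 of replicates 1 and 2 of either culture left out (adjusted p 0.0070 to 0.0752 over the alternatives). Its heavy chain partner SLC3A2 overlapped between cultures, at 160 ± 23.6 TPM in 3D and 175 ± 26.0 TPM in 2D (SD, n = 3 each; log2 fold change -0.13, limma adjusted p = 0.64). SLC38A2, which imports glutamine and alanine with sodium, was the most abundant of these carriers and did not pass the test, with 132 ± 21.1 TPM in 3D and 116 ± 26.2 TPM in 2D (log2 fold change 0.19, SE 0.21). Its near relative SLC38A1 had 57.0, 69.6 and 40.8 TPM in 3D against 37.3, 38.6 and 33.1 TPM in 2D, apart in all libraries but short of the threshold (log2 fold change 0.58, limma adjusted p = 0.0984), and it was called higher without 3D replicate 3. SLC1A5, the exchanger of glutamine and other neutral amino acids, had 51.0, 58.0 and 48.2 TPM in 3D. In 2D it had 97.6 and 83.7 TPM in replicates 1 and 2 but 40.2 TPM in replicate 3, so the groups overlapped (log2 fold change -0.40, SE 0.31, limma adjusted p = 0.41). Without 2D replicate 3, SLC1A5 was called lower, with a log2 fold change of -0.78 (limma adjusted p = 0.0198; 0.0198 to 0.771 over the alternatives).

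Mitochondrial carriers made up the largest share of the transcripts, and the most abundant one fell. The 27 members of the SLC25 family summed to 1972, 1980 and 2038 TPM in 3D, against 2645, 2610 and 2729 TPM in 2D, which puts all 3D libraries below all 2D libraries. SLC25A5 accounted for most of the gap. It encodes the adenine nucleotide translocase ANT2, which exchanges matrix ATP for cytosolic ADP, and lies at chrX:119468400-119471319 on the plus strand (GRCh38, GENCODE 29). It had 627, 549 and 617 TPM in 3D, against 1040, 1060 and 1144 TPM in 2D. This gave a log2 fold change of -0.86 (limma, SE 0.13, adjusted p = 0.0089), and the call was lost without 3D replicate 1 (adjusted p 0.0083 to 0.0546 over the alternatives). It has 9 named pseudogenes in the table, none above 1.38 TPM, and how reads were divided among such copies is uncertain.

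The other translocases did not follow it. SLC25A6, which encodes ANT3, had 281 ± 28.4 TPM in 3D and 332 ± 64.1 TPM in 2D (SD, n = 3 each; log2 fold change -0.22, limma adjusted p = 0.40). SLC25A4, which encodes ANT1, the form of heart and skeletal muscle, had 16.6 ± 0.913 TPM in 3D and 13.7 ± 1.33 TPM in 2D (log2 fold change 0.26, limma adjusted p = 0.22). The difference between these changes was not tested within the model. As a share of the 3 transcripts, SLC25A5 was 68.8%, 62.4% and 68.9% in 3D and 71.8%, 75.3% and 80.4% in 2D. The shares in 3D lay below those in 2D in all libraries.

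**Figure D2:**
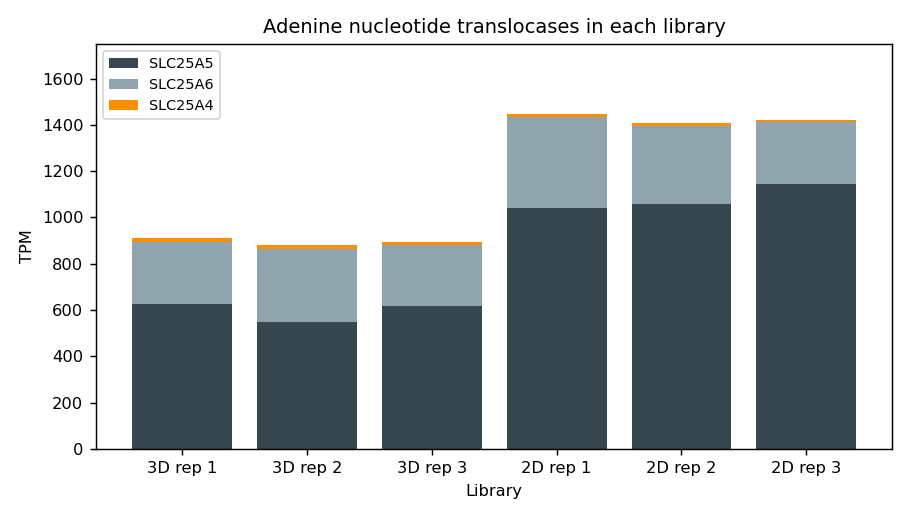
Stacked TPM of SLC25A5, SLC25A6 and SLC25A4 in each library. The total stands at 880 to 911 TPM in the 3D libraries and 1408 to 1449 TPM in the 2D libraries, and most of the difference lies in SLC25A5.

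Of the 27 mitochondrial carriers, 2 were higher, 2 were lower and 23 did not pass the test, with a median log2 fold change of 0.03. The second to fall was SLC25A11, the oxoglutarate carrier, which exchanges malate and 2-oxoglutarate in the malate-aspartate shuttle. It had 47.1, 51.9 and 66.2 TPM in 3D, against 103, 86.2 and 86.2 TPM in 2D (log2 fold change -0.74, limma, SE 0.16, adjusted p = 0.0287). It was no longer called with any 1 of replicates 1 and 2 of either culture left out (adjusted p 0.0121 to 0.116 over the alternatives). SLC25A3, the phosphate carrier that feeds ATP synthase, was second in abundance and did not pass the test, with 324 ± 7.97 TPM in 3D and 403 ± 57.3 TPM in 2D (log2 fold change -0.30, limma adjusted p = 0.19). SLC25A39, the carrier of mitochondrial glutathione, had 136, 146 and 158 TPM in 3D against 197, 187 and 243 TPM in 2D. Its groups were apart but its adjusted p was 0.0588 (limma, log2 fold change -0.50), and it was called lower under median ratios.

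The mitochondrial carriers that rose were less abundant. SLC25A25, a calcium-regulated exchanger of ATP-magnesium and phosphate, had 24.2, 22.8 and 17.8 TPM in 3D, against 11.0, 7.60 and 9.20 TPM in 2D. The groups did not overlap. The log2 fold change was 1.14 (limma, SE 0.18, adjusted p = 0.0111), a call lost without 3D replicate 1 or 2 (adjusted p 0.0094 to 0.0672 over the alternatives). SLC25A36, which carries pyrimidine nucleotides, had 67.2, 72.0 and 61.3 TPM in 3D, against 41.4, 45.9 and 44.0 TPM in 2D (log2 fold change 0.60, limma, SE 0.12, adjusted p = 0.0234). Its call was lost under median-ratio scaling, quantile normalization and with any 1 of replicates 1 and 2 of either culture left out (adjusted p 0.0204 to 0.0964 over the alternatives).

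Of 10 carriers in the class of inorganic ions, pH and cell volume, set by family number, 2 were higher, none was lower and 8 did not pass the test. At an unadjusted p under 0.05 in limma, 3 were positive and 0 negative, against 3486 and 1241 of all 15042 tested genes. SLC12A2, the sodium-potassium-chloride cotransporter NKCC1, had 17.7, 15.4 and 16.7 TPM in 3D, against 9.36, 7.13 and 3.78 TPM in 2D. The 3D libraries agreed closely with one another and lay above all 2D libraries. This gave a log2 fold change of 1.25 (limma, SE 0.27, adjusted p = 0.0279), a call lost without any 1 of the 3D libraries or 2D replicate 2 (adjusted p 0.0187 to 0.116 over the alternatives). SLC4A7, a sodium-bicarbonate cotransporter that brings base into the cell, had 31.4, 29.8 and 21.2 TPM in 3D, against 14.0, 17.5 and 16.6 TPM in 2D (log2 fold change 0.73, limma, SE 0.18, adjusted p = 0.0405). That call was lost under both rescalings and with 3D replicate 1, 3D replicate 2 or any 1 of the 2D libraries left out (adjusted p 0.0159 to 0.156 over the alternatives). The most abundant of the class, the chloride-bicarbonate exchanger SLC4A2, had 69.7 ± 2.76 TPM in 3D and 75.1 ± 1.79 TPM in 2D and did not pass the test (log2 fold change -0.11, SE 0.11).

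The myo-inositol transporter SLC5A3 showed the widest spread of any of the 109 carriers within groups, with a within-group SD of 0.91 on the log2(TPM + 1) scale. It had 42.2, 38.9 and 8.04 TPM in 3D, against 5.42, 5.26 and 4.07 TPM in 2D. Replicate 3 of 3D stood near the 2D values and the other 3D libraries far above them. The log2 fold change was 2.09 (limma, SE 0.55, adjusted p = 0.0489) and 2.82 without 3D replicate 3. The call was lost under both rescalings and with 3D replicate 1, 3D replicate 2 or any 1 of the 2D libraries left out (adjusted p 0.00082 to 0.173 over the alternatives). SLC5A3 lies at chr21:34073570-34106262 on the plus strand inside the span of MRPS6, a mitochondrial ribosomal protein gene on the same strand (GRCh38, GENCODE 29). MRPS6 had 173, 89.7 and 59.1 TPM in 3D against 36.5, 40.7 and 44.2 TPM in 2D (log2 fold change 1.25, limma adjusted p = 0.0554), and the division of reads between the overlapping transcripts is uncertain. SLC5A3 was the 1 call among 6 carriers of sugars, sugar phosphates and carboxylates. The others included SLC50A1, a sugar transporter of the Golgi, with 57.5 ± 5.51 TPM in 3D and 73.3 ± 12.3 TPM in 2D, and SLC37A3, a relative of the sugar-phosphate exchangers, with 38.8 ± 6.48 TPM in 3D and 25.8 ± 4.50 TPM in 2D. SLC37A3 passed the test without 3D replicate 3 (limma adjusted p 0.0379 to 0.234 over the alternatives, 0.0787 with all libraries). SLC37A4, the glucose-6-phosphate carrier of the endoplasmic reticulum, had 16.4, 15.4 and 22.5 TPM in 3D against 26.9, 25.2 and 28.1 TPM in 2D and did not pass the test (log2 fold change -0.55, limma adjusted p = 0.0677). It was called lower under both rescalings and without 3D replicate 3 (limma adjusted p 0.0239 to 0.212 over the alternatives). Under both rescalings the class thus had 0 higher and 1 lower in limma, in place of 1 and 0.

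Of 16 metal carriers, a zinc importer and a magnesium transporter rose in 3D, none was lower and 14 did not pass the test. A positive log2 fold change was found in 13 of the 16 and in 60.8% of all tested genes. At an unadjusted p under 0.05 in limma 6 were positive and 0 negative, against 3486 and 1241 of all 15042 tested genes. The median was 0.31 beside 0.12 for all tested genes. It was 0.15 under both rescalings, with 10 of 16 positive under median ratios and 11 of 16 under quantile normalization. SLC39A11, a zinc importer, had 55.1, 65.6 and 77.3 TPM in 3D, against 39.4, 34.2 and 39.2 TPM in 2D. No library crossed between the groups. This gave a log2 fold change of 0.78 (limma, SE 0.16, adjusted p = 0.0209), a call lost without 3D replicate 2 or 2D replicate 1 or 2 (adjusted p 0.0152 to 0.087 over the alternatives).

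SLC41A2, a magnesium transporter, had 20.4, 22.9 and 26.9 TPM in 3D, against 10.9, 9.12 and 17.3 TPM in 2D (log2 fold change 0.90, limma, SE 0.23, adjusted p = 0.0454). Its call was lost under both rescalings and without any 1 of the 3D libraries or 2D replicate 1 or 2 (adjusted p 0.0113 to 0.142 over the alternatives). SLC39A1, a zinc importer of the plasma membrane, was the most abundant metal carrier and overlapped between cultures, with 120 ± 10.4 TPM in 3D and 125 ± 10.3 TPM in 2D. SLC39A7, which releases zinc from the endoplasmic reticulum and Golgi, had 108, 140 and 99.6 TPM in 3D against 92.3, 76.3 and 56.8 TPM in 2D. Its groups were apart but it did not pass the test (log2 fold change 0.63, limma adjusted p = 0.0892). A further list held metallothioneins, which bind zinc, and the zinc sensor MTF1, with 5 genes tested. MT2A, the most abundant of them, was lower, with 342 ± 76.1 TPM in 3D and 672 ± 164 TPM in 2D (log2 fold change -0.97, limma adjusted p = 0.0377). None of that list was higher. The 1 gene positive at an unadjusted p under 0.05 in limma was MTF1 (log2 fold change 0.61, adjusted p = 0.0536), not a metallothionein.

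**Figure D3:**
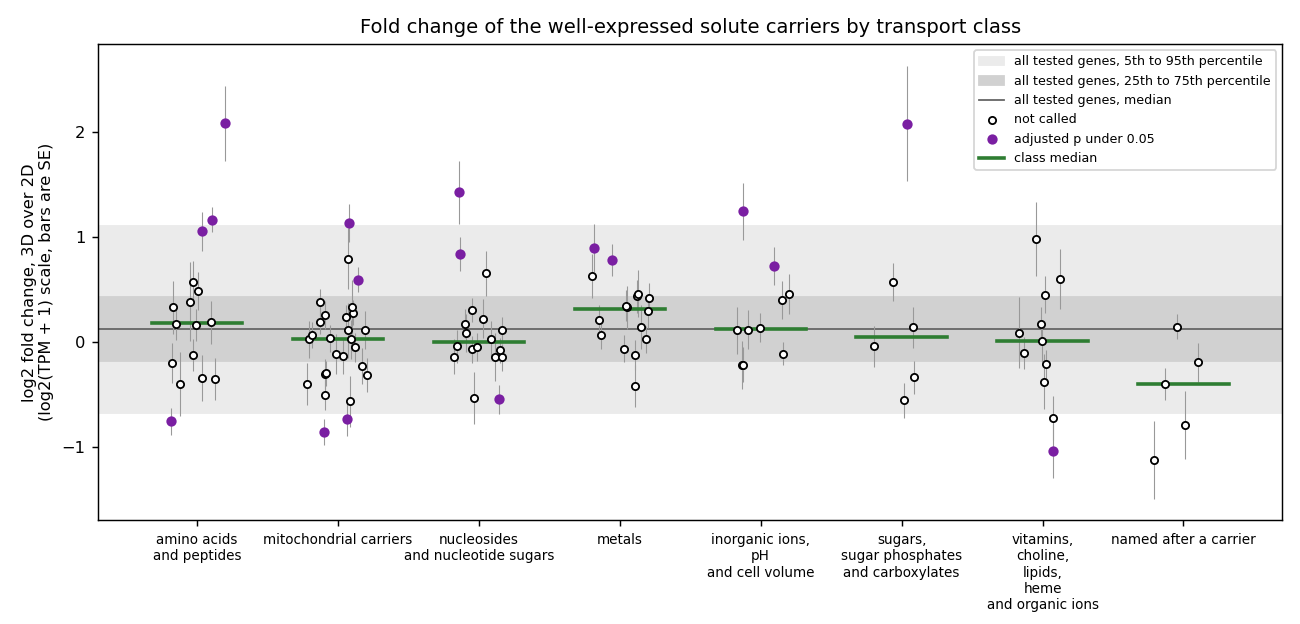
Log2 fold change (3D over 2D, log2(TPM + 1) scale, bars are SE) of the 109 carriers by transport class, filled where the adjusted p is under 0.05, over the percentiles of all tested genes. The metal carriers have the highest class median, 0.31. Called genes of both directions appear in the amino acid class, the mitochondrial class and the class of nucleosides and nucleotide sugars, each set by family number.

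Carriers of nucleosides and nucleotide sugars numbered 18, of which 2 were higher, 1 was lower and 15 did not pass the test. SLC29A4, a transporter of monoamines, other organic cations and adenosine, had 14.3, 9.70 and 22.3 TPM in 3D, against 4.69, 3.62 and 6.43 TPM in 2D. All 3D values were above all 2D values, although the 3D values ranged widely. The log2 fold change was 1.43 (limma, SE 0.30, adjusted p = 0.0261), a call lost without 3D replicate 1 or 2D replicate 1 or 2 and under quantile normalization (adjusted p 0.0058 to 0.101 over the alternatives). SLC35A2, which brings UDP-galactose into the Golgi, had 34.6, 42.4 and 35.3 TPM in 3D, against 23.6, 16.95 and 21.1 TPM in 2D (log2 fold change 0.84, limma, SE 0.16, adjusted p = 0.0186). It was no longer called with 3D replicate 1, 3D replicate 2 or 2D replicate 2 left out (adjusted p 0.016 to 0.0814 over the alternatives).

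SLC35F6 was lower, with 8.93, 10.9 and 10.0 TPM in 3D against 16.1, 14.3 and 14.3 TPM in 2D (log2 fold change -0.54, limma, SE 0.14, adjusted p = 0.0429). This call was lost whichever single library was left out (adjusted p 0.0178 to 0.164 over the alternatives). SLC35F6 overlaps the centromere histone gene CENPA on the same strand, which had 6.33, 8.10 and 20.7 TPM in 3D and 12.5, 12.7 and 39.6 TPM in 2D. The abundant SLC35B1, which exchanges ATP across the endoplasmic reticulum membrane, had 70.4 ± 2.16 TPM in 3D and 74.4 ± 6.05 TPM in 2D (log2 fold change -0.08, SE 0.12). SLC35F5 had 67.1 ± 2.67 TPM in 3D and 74.8 ± 14.8 TPM in 2D, and neither passed the test.

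Among 11 carriers of vitamins, choline, lipids, heme and organic ions, 1 was lower, none was higher and 10 did not pass the test; at an unadjusted p under 0.05 in limma, 2 were positive and 2 negative. SLC22A18, an imprinted gene of the organic ion family, had 24.1, 23.4 and 32.4 TPM in 3D, against 72.8, 61.9 and 37.0 TPM in 2D. Replicate 3 of each culture lay nearest to the other culture. This gave a log2 fold change of -1.04 (limma, SE 0.26, adjusted p = 0.0411), a call that ended with any 1 of replicates 1 and 2 of either culture left out (adjusted p 0.0037 to 0.151 over the alternatives). SLC22A18AS, annotated as protein-coding on the opposite strand and overlapping it, had 9.35, 6.42 and 20.2 TPM in 3D against 29.8, 26.1 and 19.1 TPM in 2D and did not pass the test (log2 fold change -1.12, limma adjusted p = 0.0856). The choline transporter SLC44A2, the most abundant of the class, had 50.6 ± 13.7 TPM in 3D and 49.4 ± 6.87 TPM in 2D (log2 fold change 0.01, SE 0.20).

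Of the 109, 5 match the name pattern but are not carriers themselves: the scaffold proteins SLC9A3R1 and SLC9A3R2, SLC4A1AP, SLC7A6OS and SLC22A18AS. None of the 5 was called by limma. At an unadjusted p under 0.05, 3 were negative and 0 positive, against 1241 and 3486 of all 15042 tested genes. SLC9A3R2, a scaffold that ties membrane proteins to the cytoskeleton, was the most abundant, with 68.4, 70.7 and 128 TPM in 3D against 193, 172 and 96.8 TPM in 2D. Replicate 3 again lay between the others, and the gene was called lower without 2D replicate 3 (limma adjusted p 0.0027 to 0.367 over the alternatives, 0.147 with all libraries). SLC4A1AP had 29.7 ± 1.77 TPM in 3D and 26.7 ± 0.922 TPM in 2D.

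The promoters of 4 called carriers are shown because they differ in direction and in the elements they hold: SLC39A11 was higher, and SLC25A11, SLC7A5 and SLC25A5 were lower in 3D. Each is the window from 250 bases before to 50 bases after the RefSeq start on GRCh38.p14, written 5′ to 3′ along the gene's strand. Capitals mark matches on either strand to TGATGNAA, the element bound by ATF4 and C/EBP factors, or to ACGTG, the core of the hypoxia response element.
SLC39A11, chr17:73092639-73092938, minus strand: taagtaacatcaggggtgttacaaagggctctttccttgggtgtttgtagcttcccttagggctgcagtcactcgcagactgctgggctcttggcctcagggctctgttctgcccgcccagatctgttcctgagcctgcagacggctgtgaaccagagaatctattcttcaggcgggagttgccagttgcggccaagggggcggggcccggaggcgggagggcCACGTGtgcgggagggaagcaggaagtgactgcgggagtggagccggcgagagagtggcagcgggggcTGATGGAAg
SLC25A11, chr17:4939997-4940296, minus strand: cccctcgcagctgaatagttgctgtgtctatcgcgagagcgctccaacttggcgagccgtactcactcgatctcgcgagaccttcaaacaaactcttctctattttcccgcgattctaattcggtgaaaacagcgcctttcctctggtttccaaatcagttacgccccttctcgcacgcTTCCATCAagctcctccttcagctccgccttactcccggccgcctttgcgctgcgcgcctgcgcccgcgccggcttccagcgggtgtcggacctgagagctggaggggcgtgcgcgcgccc
SLC7A5, chr16:87869458-87869757, minus strand: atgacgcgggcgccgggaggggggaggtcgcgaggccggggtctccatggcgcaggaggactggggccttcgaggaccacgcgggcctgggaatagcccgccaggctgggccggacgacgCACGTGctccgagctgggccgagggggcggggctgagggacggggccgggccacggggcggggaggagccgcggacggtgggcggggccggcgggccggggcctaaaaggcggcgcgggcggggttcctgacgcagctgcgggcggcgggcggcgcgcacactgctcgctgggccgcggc
SLC25A5, chrX:119468194-119468493, plus strand: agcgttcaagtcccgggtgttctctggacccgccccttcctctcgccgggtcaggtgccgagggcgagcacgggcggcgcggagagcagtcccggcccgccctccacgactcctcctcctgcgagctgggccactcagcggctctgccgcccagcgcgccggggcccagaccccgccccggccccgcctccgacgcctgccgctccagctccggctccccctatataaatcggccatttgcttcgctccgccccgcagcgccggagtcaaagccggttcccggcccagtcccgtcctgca
SLC39A11 held both elements, SLC25A11 the first and SLC7A5 the second. In SLC39A11 and SLC7A5 the core reads the same on both strands as part of CACGTG, and so matched on each. SLC25A5 held neither, and its window was 73.7% G and C, between the 62.0% of SLC39A11 and the 80.3% of SLC7A5.

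Promoter windows were matched for 91 of the 109 carriers by symbol, among them 10 of the 12 called higher and 3 of the 5 called lower. TGATGNAA was found in 5 of the 91 (5.49%), against 3.62% of 35116 promoters of the same length. ACGTG was found in 23 of 91 (25.3%) against 21.4%. TGGAAA, the core of the tonicity element, was found in 21 of 91 (23.1%) against 20.7%, and the AP-1 element TGANTCA in 3 of 91 (3.30%) against 7.71%. The NF-kB element was found in 0 of 91 against 0.558%. Among carriers called higher, ACGTG occurred in SLC25A36, SLC41A2 and SLC39A11, TGATGNAA in SLC39A11 and TGGAAA in SLC35A2, and the other motifs in none of the 10. Among the 3 called lower, ACGTG occurred in SLC7A5, TGATGNAA and TGGAAA in SLC25A11, and the other motifs in none. All were searched on both strands, and a match describes letters in the window, not a bound site.

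Of 228 carriers under 10 TPM not left out by name, 24 were listed at 0 in every library, 122 had a mean above 0 and under 1 TPM, and 82 were tested. In those 82, 6 (7.32%) were higher and 2 (2.44%) were lower, against 10.2% and 2.12% of all tested genes. Of these, SLC28A3, SLC4A3 and SLC6A20 averaged under 1 TPM in 1 culture and passed the filter only through the other. Their calls are therefore no support for a difference. The nucleoside transporter SLC28A3 had 9.70, 11.7 and 4.59 TPM in 3D against 0.910, 0.500 and 0.560 TPM in 2D. SLC6A14, which concentrates neutral and basic amino acids, had 7.69, 15.3 and 6.70 TPM in 3D against 1.89, 1.66 and 0.740 TPM in 2D (log2 fold change 2.12, limma adjusted p = 0.0104). Both were named after their values were seen, as the largest increases among carriers under 10 TPM.

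Genes that work with the carriers changed in a few places, where 10.2% of all tested genes were called higher and 2.12% lower. Of 6 tested sodium pump genes, 1 was higher and 1 was lower. ATP1B1, the main beta subunit, had 369 ± 50.8 TPM in 3D and 211 ± 54.8 TPM in 2D (log2 fold change 0.83, limma adjusted p = 0.0416), and FXYD5, a regulator of the pump, had 79.8 ± 12.1 TPM in 3D and 136 ± 14.2 TPM in 2D (-0.77, adjusted p = 0.0209). Of 13 carrier partners and scaffolds, 1 was higher and none was lower. It was NPTN, an escort of monocarboxylate transporters related to basigin, with 119 ± 10.6 TPM in 3D and 68.9 ± 15.9 TPM in 2D (log2 fold change 0.80, limma adjusted p = 0.0297). At an unadjusted p under 0.05 in limma, 2 of that list were positive and 2 negative.

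Enzymes and sensors of amino acid supply moved in both directions. Over all tested genes, 10.2% were called higher and 2.12% lower. At an unadjusted p under 0.05 in limma, 3486 of all 15042 tested genes were positive and 1241 negative. Of 12 tested enzymes of glutamine and glutamate, 3 were lower. GOT2, the mitochondrial aspartate aminotransferase that works with SLC25A11 in the malate-aspartate shuttle, had 72.0 ± 1.39 TPM in 3D and 125 ± 20.03 TPM in 2D (log2 fold change -0.78, limma adjusted p = 0.0169). Of 18 genes of the amino acid starvation response, 2 were lower, PHGDH and PSAT1 of serine synthesis, and none was higher. In that list 3 were positive at an unadjusted p under 0.05 in limma. PSAT1 is on both lists and is also 1 of the 3 lower enzymes of glutamine and glutamate. ASNS, which was not called, is on both as well. Of 20 genes of lysosomal amino acid sensing by mTORC1, 5 were higher and none was lower, with 3 negative at an unadjusted p under 0.05. SESN3, a sestrin that restrains mTORC1, had 4.44 ± 0.776 TPM in 3D and 0.403 ± 0.219 TPM in 2D, and entered the test only through its 3D level, so its call is no support. RRAGD, a Rag GTPase, had 14.4 ± 3.43 TPM in 3D and 5.42 ± 1.46 TPM in 2D (log2 fold change 1.27, limma adjusted p = 0.0172). Of 8 tested mitochondrial pyruvate and outer membrane channel genes, 1 was higher and none was lower, and none was negative at an unadjusted p under 0.05 in limma. It was MPC1, a subunit of the mitochondrial pyruvate carrier, with 20.9 ± 2.59 TPM in 3D and 10.1 ± 3.40 TPM in 2D (log2 fold change 1.03, adjusted p = 0.0368). Of 18 tested vacuolar proton pump genes, 1 was higher, ATP6AP2, and none was lower, with 1 negative at an unadjusted p under 0.05. Of 12 tested channels and carriers without an SLC name, 2 were higher and none was lower, with 2 negative at an unadjusted p under 0.05. The 2, MFSD2A and SV2A, averaged 0.750 and 0.753 TPM in 2D and likewise entered only through 3D.

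Single libraries and settings decided many of the calls. Without the filter on low values, 10 of the 17 calls were lost: SLC6A8, SLC5A3, SLC29A4, SLC12A2, SLC41A2, SLC39A11, SLC4A7, SLC25A11, SLC35F6 and SLC22A18. Without limma's trend SLC5A3, SLC41A2, SLC4A7, SLC35F6 and SLC22A18 were lost, without the genes of the mitochondrial genome SLC5A3, SLC4A7 and SLC35F6, and with a pseudocount of 5 SLC5A3. Without 3D replicate 1, the calls kept were SLC6A8, SLC43A3 and SLC39A11, and without 3D replicate 2 they were SLC29A4, SLC43A3 and SLC25A5. Without 2D replicate 2, SLC43A3, SLC25A25, SLC6A6 and SLC25A5 were kept. Without 2D replicate 1, 7 of the 17 were kept. Without 3D replicate 3, 13 carriers were higher and 8 lower, and without 2D replicate 3, 10 were higher and 8 lower, with 14 of the 17 calls kept in each. Without both, an analysis chosen after seeing the data, 20 were higher and 13 lower, with 16 of the 17 kept. Calls among all tested genes were also more numerous there, 2289 higher and 1239 lower against 1536 and 319 with all libraries. Single omissions likewise shifted the calls of all tested genes, so these changes were not particular to the carriers. Omitting 3D replicate 1 left 331 higher and 25 lower genes, and omitting 3D replicate 2 left 380 and 38. For 2D, the counts were 733 and 76 when replicate 1 was omitted, and 408 and 51 for replicate 2. Leaving out replicate 3 gave 1610 and 553 for 3D, and 1520 and 534 for 2D.

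**Figure D4:**
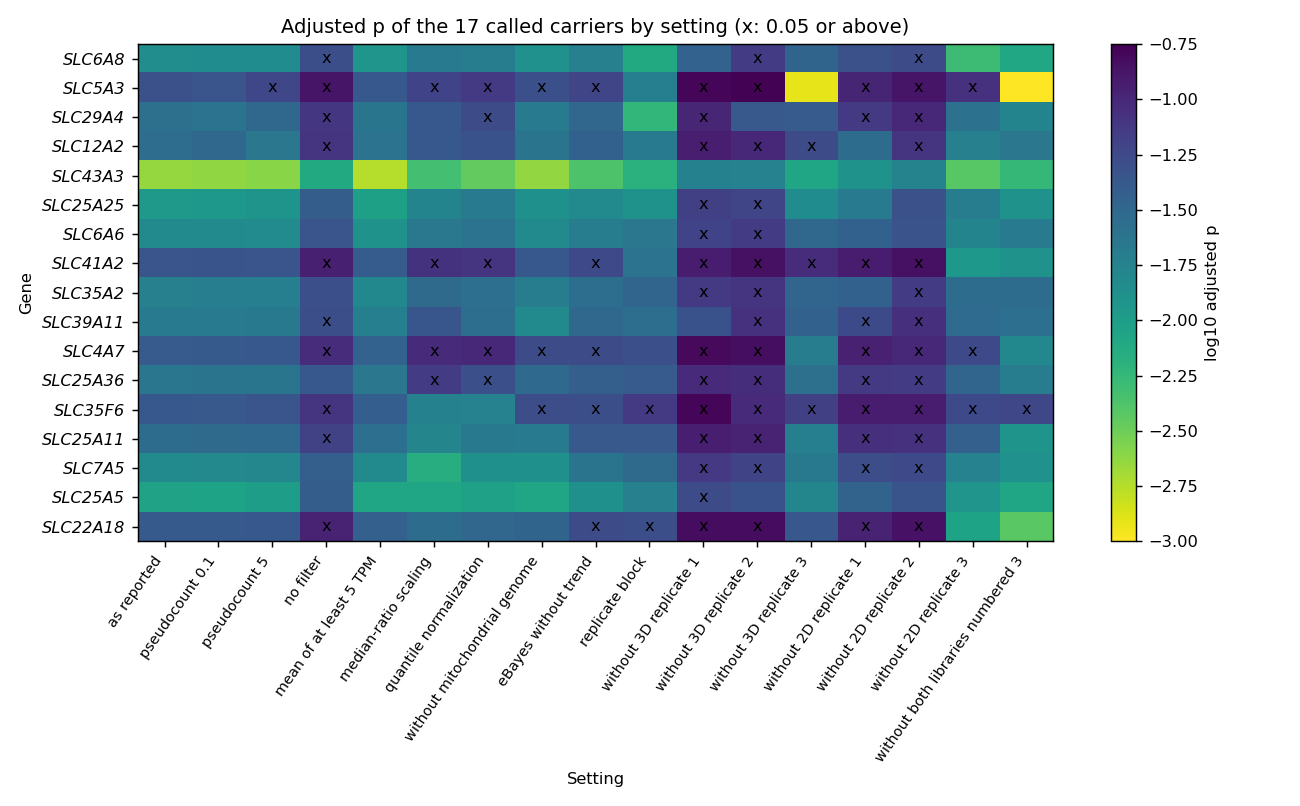
Adjusted p (log10 colour scale, limma) of the 17 called carriers, 1 row per gene and 1 column per setting, with x marking values of 0.05 or above. SLC43A3 has no x in any column. Leaving out replicate 1 or 2 of either culture, or the filter on low values, marks most genes.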

How the data were processed

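RNA was measured in 6 HCC827 libraries, 3 from 3D and 3 from 2D culture. Per the labels' protocols, RNA with an integrity number above 9 was DNase-treated, poly(A) RNA was isolated, directional libraries were made and sequencing was single-end with 75 nt. The authors deposited 1 table of TPM with 2 decimals, in which each library sums to about 1000000. The tools STAR 2.7.0d, RSEM 1.3.1 and cutadapt 2.3 and the build hg38 are named, per the submitters' processing notes, with no role or order. Annotation release and strand setting: not given in the sources used here. TPM is a share of each library, so an increase in some genes lowers the rest.

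The 15042 genes that averaged 1 TPM or more entered limma 3.58.1 (trend, R 4.3.3) as log2(TPM + 1). Tests were two-sided, and p-values were adjusted by Benjamini-Hochberg across these genes, with 0.05 as the threshold. Fold changes on this scale understate changes of low genes. The fit was tested on simulated data. Groups and replicate numbers came from the sample titles. Classes follow the family number, apart from 5 genes only named after a carrier, which were set apart after the table was read. Named are all called carriers, the 2 most abundant of each class, those at the threshold and the leading genes of 14 context lists. SLC25A6, SLC25A4, SLC25A39, SLC38A1, SLC1A5, SLC37A4, SLC3A2, the overlapping genes and the other SLC9A3R1 type genes were named after their values were seen. The result of 1 gene of the glutamine and glutamate list is not reported here. The members and lists were chosen with earlier results of these data known. Positions are from GENCODE 29 and promoters from RefSeq. Python 3.11.15 and matplotlib 3.10.9 drew the figures. Alternatives were other pseudocounts, filters, scalings, the trend, a replicate block and each library left out.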

Additional observations from a re-analysis of the deposited data

How the results depend on the processing

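Pseudocounts of 0.1 and 5, a filter at a mean of 5 TPM and leaving out the mitochondrial genome kept the counts of called carriers within 1.5 times. Without the filter, 5 carriers were higher and 2 lower (729 and 86 of all genes), since more genes entered the adjustment. Median-ratio scaling gave 8 higher and 10 lower (943 and 669 of all genes), and quantile normalization 7 and 8 (869 and 576). Without the trend 9 were higher and 3 lower (1429 and 260 of all genes). With the replicate block 14 were higher and 3 lower (1479 and 395 of all genes). With that block SLC22A18 (limma adjusted p = 0.0515) and SLC35F6 (limma adjusted p = 0.0734) were lost, and SLC19A2 and SLC25A29 were gained. The deviations of same-numbered libraries from their group means correlated at 0.10, 0.04 and 0.19. Other pairs ran from -0.17, for 3D replicate 1 with 2D replicate 3, to 0.13, for 3D replicate 1 with 2D replicate 2. These values do not settle whether same-numbered libraries are paired, and the fit without the block stayed the main one. Numbers 3 correlated most, and the labels do not say whether a number marks a shared batch. With 1 library left out, between 2 and 13 carriers were higher and between 0 and 8 lower, and between 331 and 1610 of all genes were higher and between 25 and 553 lower. The 0 came without 3D replicate 1, where limma gave 9 lower carriers at an unadjusted p under 0.05. Without both libraries numbered 3, 20 carriers were higher and 13 lower, against 2289 and 1239 of all genes. With a threshold of 20 TPM for membership 6 of 64 carriers were higher and 4 lower, and with 5 TPM 15 of 142 were higher and 5 lower. The cause of these shifts was not tested. Reversed signs occurred in uncalled genes alone. SLC44A2 was -0.16 under median ratios, -0.058 under quantile normalization, -0.094 without both libraries numbered 3 and -0.20 to 0.13 with 1 library left out. SLC4A1AP was -0.023 under median ratios. With 1 library left out, SLC25A12 was -0.12 to 0.011 and SLC38A2 -0.0090 to 0.31. TPM holds no depth, so what depth limits is unknown.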

Other observations

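Genes of the response to high salt, in which myo-inositol and taurine carriers such as SLC5A3 and SLC6A6 are known to take part, were chosen after the carriers' values were seen. NFAT5, the transcription factor of the tonicity response, had 8.07 ± 1.88 TPM in 3D and 6.25 ± 1.19 TPM in 2D (SD, n = 3 each; log2 fold change 0.32, limma adjusted p = 0.33). AKR1B1, which makes the osmolyte sorbitol, had 20.1, 18.4 and 31.0 TPM in 3D against 37.1, 37.15 and 71.2 TPM in 2D, all 3D values below all 2D values (log2 fold change -1.001, limma adjusted p = 0.0655). The betaine transporter SLC6A12 was not above 1.23 TPM in any library and was not tested. HSPA4L, an osmotic stress chaperone, had 9.74 ± 0.376 TPM in 3D and 8.75 ± 0.823 TPM in 2D.

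Of the genes that make or use creatine, the solute of SLC6A8, the 3 below did not pass the test. GATM, which begins creatine synthesis, had 0.603 ± 0.376 TPM in 3D and 1.42 ± 0.257 TPM in 2D (SD, n = 3 each; limma adjusted p = 0.16), and GAMT, which completes it, had 19.6 ± 5.35 TPM in 3D and 26.1 ± 3.75 TPM in 2D (limma adjusted p = 0.21). Brain-type creatine kinase CKB had 140, 168 and 233 TPM in 3D against 181, 176 and 480 TPM in 2D, highest in 2D replicate 3.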
